A study of Caenorhabditis elegans with 24 samples.

Results

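All cultured cells of the C. elegans embryo were compared with RNA of whole L2 larvae, the 2 references against which the neurons of each stage were profiled in the study. The embryonic reference comprised 4 arrays and the larval reference 5 arrays, 9 of the 24 samples of the series, and samples were taken by these group titles. The embryonic reference (labelled wildtype) was total RNA of all viable cells of dissociated embryos after 24 h in culture. The larval reference came from wild type (N2) worms, which carry no tagged protein. They were grown in synchrony for 22 to 24 h to the mid-L2 stage, fixed in 0.5% formaldehyde and broken in a French press, and the small amount of RNA recovered from an anti-FLAG pull-down of this lysate was used. Neither group carried a transgene or a treatment. The RNA of both was amplified in 2 rounds, labelled with biotin and hybridized to the Affymetrix C. elegans GeneChip. Stage, culture, fixation, pull-down, array protocol, scanner type and hybridization day all changed from one group to the other. The paper amplified less RNA from pull-downs than from sorted embryonic neurons, and gives no amount for the embryonic reference. The parts of all these in any difference below cannot be told apart. For this reason a probe set was called only at an adjusted p under 0.01 and a difference of at least 4-fold.

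By hatching, the embryo has made nearly all tissues of the larva, and cultured embryonic cells are known to take on muscle, neuronal, epidermal and intestinal fates without further morphogenesis. Larvae feed through the pharynx, digest bacteria in the intestine and replace the collagen cuticle at each moult. Dissociation and culture are known stresses to cells, and a culture holds no bacterial food, no gut lumen and no whole cuticle. In bulk RNA of this kind, fewer cells of a type and less RNA per cell cannot be told apart.

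A level is given as log2 of the deposited intensity after the 9 arrays had been brought to a common distribution, and a difference is larval minus embryonic on that scale, with its moderated standard error (SE). Replicate arrays lay close together. The squared correlation was taken across 22548 probe sets on log2 of the deposited intensities, before the arrays were brought to a common distribution. It was 0.943 to 0.971 within the embryonic reference, 0.951 to 0.983 within the larval reference and 0.512 to 0.599 between them. The median deposited intensity was 48.6 to 50.2 on the embryonic and 61.8 to 62.5 on the larval arrays. Signal at the 3′ end of the glyceraldehyde phosphate dehydrogenase control over that at its 5′ end, which grows as transcripts shorten, lay between 1.02 and 1.27 (log2) on the 4 embryonic and between 1.32 and 2.75 on the 5 larval arrays, without overlap. This 3′ over 5′ signal thus moved with the groups. Whether RNA length, RNA input or amplification set it, and its part in the differences, was not tested. No hybridization day and no scanner type held arrays of both groups. Of all values, 31.7% lay below 5, here called near the floor of the array, where a level is mostly background and a fold against it is rough. The labels give the arrays of a group as biological replicates, and the p-values measure the spread between them.

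The 2 references differed widely. Of 22548 probe sets, 1302 (5.77%) were called higher in the larval reference and 1183 (5.25%) higher in the embryonic reference. In 62.8% of all probe sets the 2 groups did not overlap at all, and of the 2485 called probe sets 2483 did not. With each gene counted once, by its brightest probe set, 1072 of 17118 genes (6.26%) were higher in the larval and 796 (4.65%) higher in the embryonic reference, and these shares are the background for every gene list below. By an unadjusted p under 0.05 alone, 6589 of the 17118 genes were higher in the larval and 5905 in the embryonic reference. Counts at that p below are to be read beside these. The median difference over all genes was 0.04, and the middle 50% of genes lay between -0.55 and 0.60. On the values as deposited, without joint normalization, the median of all probe sets was 0.19, the calls were 1578 and 940, and the larval share of calls rose from 52.4% to 62.7%.

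**Figure D1:**
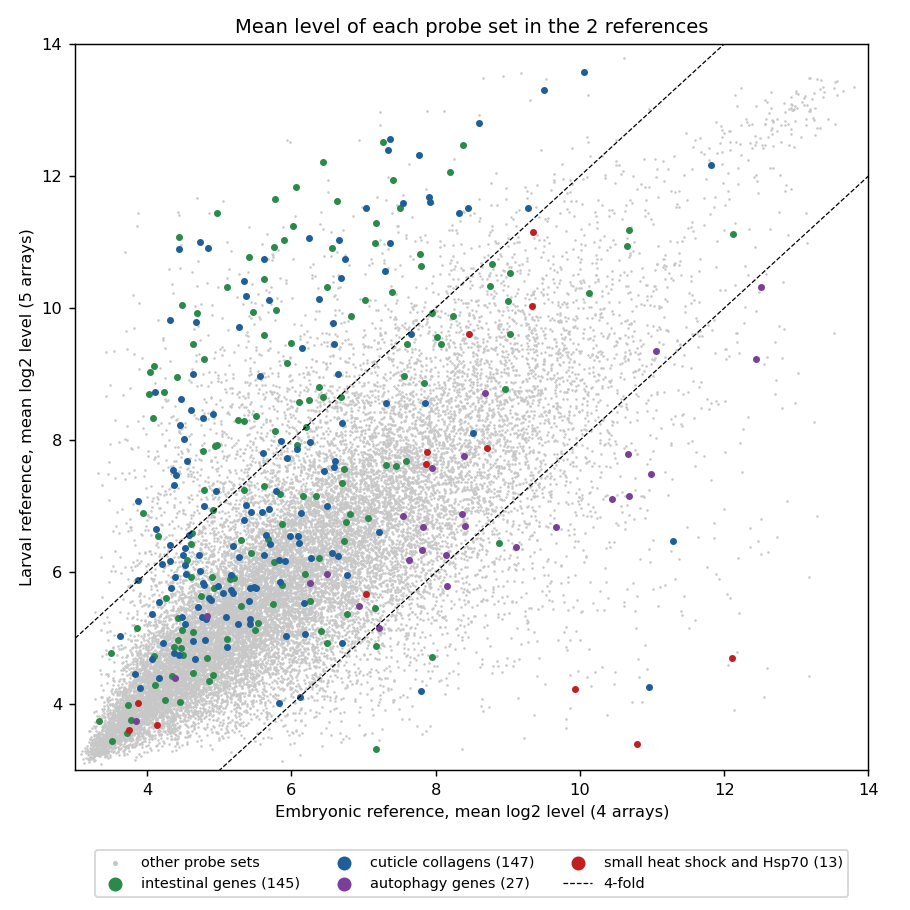
Mean log2 level of each of 22548 probe sets in the embryonic reference (x axis, 4 arrays) and the larval reference (y axis, 5 arrays), with the brightest probe sets of the genes of 4 lists in colour. Intestinal genes and cuticle collagens are spread above the upper 4-fold line, and 3 of 13 heat shock genes lie far below the lower one. The heat shock and autophagy lists were gathered after their values were seen.

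The 12 largest larval differences included those of a lysozyme, a protease, a fatty acid elongase and a collagen gene. Values below are given in the order of the replicates. ilys-5, an invertebrate-type lysozyme gene, read 11.63, 11.65, 11.47, 11.34 and 11.12 in the larval reference and 3.69, 3.93, 4.02 and 3.84 in the embryonic reference. That difference, 7.57 ± 0.12, was 190-fold (limma with Benjamini-Hochberg adjustment, adjusted p = 7.5e-11). A further ilys-5 probe set, brighter and so used for gene counts, gave 6.48 ± 0.08. Every larval array lay above every embryonic array, where ilys-5 was near the floor.

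cpr-5, which encodes a cathepsin B-like protease, read 10.92, 11.14, 11.04, 11.50 and 10.76 in the larval reference and 4.56, 4.29, 4.45 and 4.46 in the embryonic reference (6.63 ± 0.14). elo-5, an elongase of branched-chain fatty acids, read 11.07, 11.81, 11.90, 11.75 and 11.59 in the larval reference and 4.53, 5.68, 5.07 and 4.90 in the embryonic reference (6.58 ± 0.23). The collagen gene dpy-5 read 11.47, 10.79, 10.30, 11.45 and 10.44 in the larval reference and 4.68, 4.26, 4.56 and 4.26 in the embryonic reference (6.45 ± 0.26). In none of these 3 genes did the groups come within 4 log2 units of each other. gsto-1, an omega-class glutathione transferase gene, differed by 6.41 ± 0.12, hrg-7, which encodes a secreted aspartic protease of heme signalling, by 6.54 ± 0.16, and nspg-6, of a nematode-specific peptide family, by 6.49 ± 0.15. The other 5 of the 12 largest larval differences were those of Y51F10.7 (7.17), C14C6.5 (7.03), K12H4.7 (6.96), C17F4.7 (6.60) and C23H5.8 (6.29), known here by sequence names. The differences of these 12 are those of the probe set with the largest difference. For ilys-5, Y51F10.7 and C23H5.8 a brighter probe set was used for gene counts, and gave 6.48 for ilys-5 and 3.06 for C23H5.8. By the brightest probe set of each gene the largest larval difference was 7.03, that of C14C6.5.

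Stress and infection response genes were among those that stood highest in the embryonic reference. irg-2, named for its induction by infection, read 12.21, 12.20, 11.995 and 12.12 in the embryonic reference and 3.78, 3.94, 4.04, 3.85 and 3.96 in the larval reference, a difference of -8.21 ± 0.08 or 297-fold (adjusted p = 9.5e-12). The small heat shock gene hsp-16.2 read 12.15, 12.34, 11.80 and 12.12 in the embryonic reference and 4.70, 4.68, 4.71, 4.79 and 4.63 in the larval reference (-7.40 ± 0.11). Its relative hsp-16.41 read 11.27, 11.02, 10.25 and 10.61 in the embryonic reference and 3.38, 3.35, 3.45, 3.38 and 3.47 in the larval reference (-7.38 ± 0.18). All 3 genes were bright on each of the 4 embryonic arrays and near the floor on each of the 5 larval arrays. dpy-14, a collagen gene needed in embryonic development, also belonged to this group. It read 11.54, 10.52, 11.34 and 10.41 in the embryonic reference and 4.09, 4.25, 3.91, 4.83 and 4.23 in the larval reference (-6.69 ± 0.26), so that embryonic replicates 1 and 3 were about 1 log2 unit above replicates 2 and 4.

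The remaining 8 were C25F9.2 (-7.47), Y58A7A.5 (-7.38), T07F10.5 (-6.82), F14F9.4 (-6.81), Y57G11C.20 (-6.68), F26E4.5 (-6.53), C04C3.4 (-6.48) and F59C12.4 (-6.44). T07F10.5, Y57G11C.20 and C04C3.4 were measured by probe sets of the kind marked as prone to cross-hybridization (_x_at). None of the 12 larval differences came from that kind, though the brighter ilys-5 probe set was of it. Those of ilys-5, cpr-5, elo-5, dpy-5, nspg-6, C14C6.5, K12H4.7, C17F4.7 and C23H5.8 were of the _s_at kind, as was that of F26E4.5. This is not the kind specific to a transcript (_at). F26E4.5 was lower on embryonic replicate 1, which read 8.75 beside 10.85, 10.999 and 10.90 on the other embryonic arrays. In all 24 genes the groups did not overlap, and in 18 the lower group mean was near the floor.

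**Figure D2:**
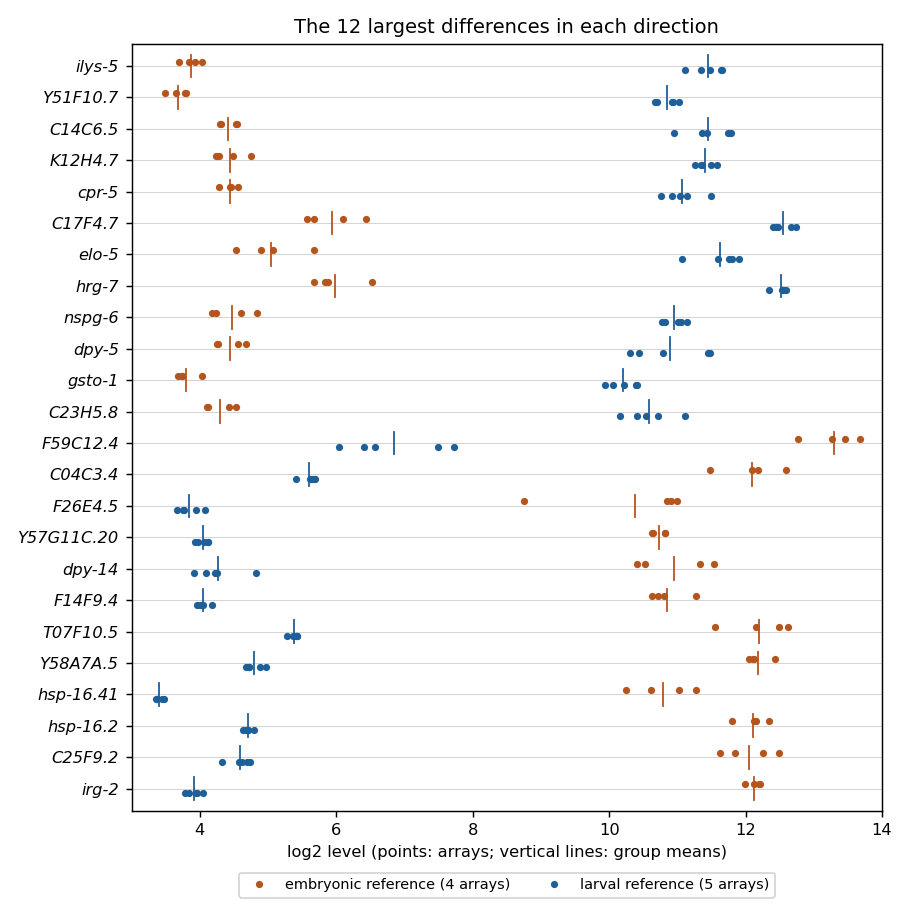
Log2 level (x axis) of the 12 genes with the largest difference in each direction, 1 row a gene, with 1 point for each of the 4 embryonic arrays (orange) and 5 larval arrays (blue) and vertical lines at group means. The groups are separated in all 24 rows, and F26E4.5 has 1 embryonic array at 8.75, apart from the others.

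The intestine, the digestive and fat-storing tissue of the worm, gave one of the broadest larval differences. Of 145 intestinal enzyme and surface genes, 57 were called higher in the larval reference, 4 higher in the embryonic reference and 84 neither, and the median was 1.38 against 0.04 over all genes. cpr-4, a cathepsin B-like protease gene, read 11.26, 11.69, 11.83, 12.02 and 11.50 in the larval reference and 5.89, 5.46, 5.86 and 5.86 in the embryonic reference (5.89 ± 0.16). lbp-6, a fatty acid binding protein gene, read 12.30, 12.27, 12.24, 12.12 and 12.16 in the larval reference and 6.83, 6.07, 6.57 and 6.28 in the embryonic reference (5.78 ± 0.14). pept-1, the peptide transporter of the gut surface, differed by 4.48 ± 0.15, the saposin-like gene spp-1 by 5.37 ± 0.10 and the lysozyme gene lys-1 by 5.15 ± 0.12, all 3 named after their values were seen. aqp-2, an aquaporin gene with the highest mean level of the members not called, stood the other way at -0.995 ± 0.11. Those called higher in the embryonic reference were the P-glycoprotein genes pgp-5 (-3.86), pgp-8 (-3.24) and pgp-4 (-2.43), whose products pump small molecules out of cells, and the acyl-CoA dehydrogenase gene acdh-2 (-2.28). Of 6 fixed intestinal markers, ges-1 (a gut esterase, 2.95 ± 0.12), cpr-1 (4.13 ± 0.12) and asp-1 (4.08 ± 0.30) were called and act-5 (1.89 ± 0.22), ifb-2 (1.55 ± 0.31) and the gut-specifying GATA factor elt-2 (0.82 ± 0.25) were not. The mean level of these markers was 6.94 to 7.89 on the embryonic and 9.72 to 10.1 on the larval arrays.

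A pair of further families, gathered after their values were seen, stood the same way. Of 19 cathepsin A-type carboxypeptidase and galectin genes 12 were higher in the larval reference and 1, lec-12 (-2.37), higher in the embryonic reference, with a median of 2.56. Among them were ctsa-2 (4.47 ± 0.21), ctsa-4.1 (4.38 ± 0.15) ctsa-1.2 (4.37 ± 0.13) and the galectin gene lec-10 (3.71 ± 0.21), and lec-6 was the brightest not called (0.77 ± 0.18). Of 40 transthyretin-like genes, a secreted nematode family, 15 were higher in the larval reference, ttr-8 most (5.91 ± 0.19), then ttr-31 (4.56 ± 0.18) and ttr-27 (3.61 ± 0.17), and ttr-50 alone was higher in the embryonic reference (-4.22 ± 0.31). ttr-15 was the brightest not called (0.95 ± 0.32). Of 220 C-type lectin genes, whose products bind sugars, 27 were called higher in the larval and 3 in the embryonic reference. clec-65 (5.88 ± 0.12), clec-265 (5.70 ± 0.15), clec-57 (5.34 ± 0.10) and clec-50 (5.33 ± 0.14) led them, and the brightest member not called was clec-180 (1.83 ± 0.29). In the order of the WBcel235 annotation, 5 neighbouring genes of chromosome II, clec-62 to clec-66, were all called higher in the larval reference.

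Calls among genes of lipid and energy metabolism lay mostly on the larval side. Of 111 fatty acid synthesis and breakdown genes, 18 of which the intestinal list also holds, 29 were higher in the larval and 3 in the embryonic reference (median 0.90), and 34 and 1 as deposited. Besides elo-5 and lbp-6 they included acs-14, an acyl-CoA synthetase gene (4.60 ± 0.10), and the stearoyl-CoA desaturase gene fat-6 (4.02 ± 0.20, named after its value was seen), and let-767, a steroid dehydrogenase gene, was the brightest not called (1.08 ± 0.15). acdh-1, an acyl-CoA dehydrogenase gene, read 10.04, 8.39, 6.40, 10.57 and 10.25 in the larval reference and 4.18, 4.05, 4.04 and 4.13 in the embryonic reference. Its difference of 5.03 ± 0.75 was past the threshold, yet the larval arrays spread over about 4 log2 units, with replicate 3 lowest. Of 46 genes of glycolysis and the TCA and glyoxylate cycles, 12 were higher in the larval reference and none in the embryonic one (5 by an unadjusted p under 0.05 alone), with a median of 1.24. fbp-1, a fructose bisphosphatase of glucose synthesis, differed by 3.56 ± 0.11, the malate dehydrogenase gene mdh-2 by 3.50 ± 0.15, the isocitrate dehydrogenase subunit idhb-1 by 3.46 ± 0.16 and the pyruvate dehydrogenase subunit pdhb-1 by 3.30 ± 0.08, whereas the glyceraldehyde phosphate dehydrogenase gene gpd-2 did not pass (0.32 ± 0.10). On the values as deposited 20 of these genes were called. Of 52 respiratory chain genes 9 were higher in the larval reference (15 as deposited). Among them were cox-19, for an assembly factor of cytochrome oxidase (3.77 ± 0.15), the ATP synthase gene asg-1 (2.84 ± 0.33), the cytochrome oxidase gene cox-6B (2.41 ± 0.25) and the succinate dehydrogenase gene sdha-1 (2.36 ± 0.15). The cytochrome c gene cyc-2.1 was the brightest not called (0.72 ± 0.09). sdha-2, the paralogue of sdha-1, was higher in the embryonic reference (-2.11 ± 0.28), but not called without embryonic replicate 4 (-1.94) or as deposited (-1.95).

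Enzymes of detoxification moved in both directions. Of 215 cytochrome P450, UDP-glucuronosyltransferase and glutathione transferase genes, 50 were higher in the larval reference and 15 higher in the embryonic reference, with a median of 0.51. ugt-46 (5.32 ± 0.10), gst-26 (5.14 ± 0.15) and ugt-12 (5.02 ± 0.10) were highest in the larval reference after gsto-1. The glucuronosyltransferase gene ugt-29, named after its values were seen, read 9.35, 8.94, 9.48 and 9.84 in the embryonic reference and 4.49, 4.36, 4.43, 4.45 and 4.43 in the larval reference (-4.97 ± 0.15). Likewise gst-31 differed by -4.67 ± 0.28. gst-7, the brightest member not called, differed by -1.1 ± 0.15.

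Epidermal products formed the other large larval group. Of 147 cuticle collagen genes, 55 were higher in the larval reference, 4 in the embryonic reference and 88 neither, with a median of 1.43. col-80 read 10.38, 10.68, 11.13, 11.39 and 11.40 in the larval reference and 4.90, 4.39, 4.94 and 4.67 in the embryonic reference (6.27 ± 0.22). col-98 read 9.58, 10.77, 10.71, 12.13 and 11.39 in the larval reference and 5.16, 4.47, 4.89 and 4.88 in the embryonic reference (6.07 ± 0.42). Within the larval reference col-98 was lowest on replicate 1 and highest on replicate 4, and rol-6, a collagen of body shape, also spread, from 8.97 to 10.78 (4.45 ± 0.32). The collagens higher in the embryonic reference were dpy-14, dpy-17 (-4.82 ± 0.26), col-121 (-3.58) and col-74 (-2.01). On embryonic replicate 1 col-74 read 7.85 beside 5.40 to 5.61 on the others, and without it the difference was -1.44 and not called. sqt-3, the brightest collagen not called, differed by 0.36 ± 0.28, and the adult collagen col-19 lay near the floor in both groups (3.90 and 4.24).

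Of 31 epidermal antimicrobial peptide genes 13 were higher in the larval and none in the embryonic reference (2 by an unadjusted p under 0.05 alone), and the median was 1.30. fipr-21 (5.45 ± 0.17), nlp-26 (4.90 ± 0.21), cnc-8 (4.65 ± 0.12) and nlp-27 (4.39 ± 0.20) led, and cnc-4 did not pass (-0.06 ± 0.29). The chromosome V neighbours nlp-27 to nlp-31 were all called. Neighbouring members of a family can be alike in sequence, and cross-hybridization among their probe sets was not tested. Of 54 hedgehog-related genes, which encode secreted proteins of the epidermis and its seam, 10 were higher in the larval reference. grd-10 read 9.59, 10.73, 10.67, 10.81 and 10.96 in the larval reference and 4.89, 4.66, 4.46 and 4.49 in the embryonic reference (5.93 ± 0.25), and grd-3 (4.73 ± 0.26) and grd-5 (4.11 ± 0.23) followed. grl-15 (3.01 ± 0.51) spread from 8.04 to 10.99 on the larval arrays and lost its call when larval replicates 4 and 5 were used alone (2.35). grl-1 was higher in the embryonic reference (-2.19, or -1.99 and not called as deposited), and wrt-2 was the brightest not called (1.2 ± 0.35).

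Few moulting genes were called. Of 114 moulting protease and cuticlin genes 5 were higher in the larval and 3 higher in the embryonic reference, shares of 4.39% and 2.63% beside 6.26% and 4.65% over all genes. In 73 of them the mean was higher in the larval reference, by an unadjusted p under 0.05 alone 58 were higher there and 32 in the embryonic reference, and the median was 0.29 (0.57 as deposited). The astacin protease gene nas-11 differed by 4.13 ± 0.11 and the cuticlin-like genes cutl-16 and cutl-25 by -3.49 ± 0.22 and -3.28 ± 0.17. noah-1, an apical matrix gene, was the brightest not called (0.98 ± 0.25). Among markers fixed for cell types, the epidermal regulators lin-26 (0.34 ± 0.20), elt-3 (1.87 ± 0.19) and nhr-25 (-0.02 ± 0.22) were not called, and with dpy-7 (0.72 ± 0.43), bli-1 (0.23 ± 0.15) and col-19 they left rol-6 as the single one of 7 epidermal markers that passed.

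**Figure D3:**
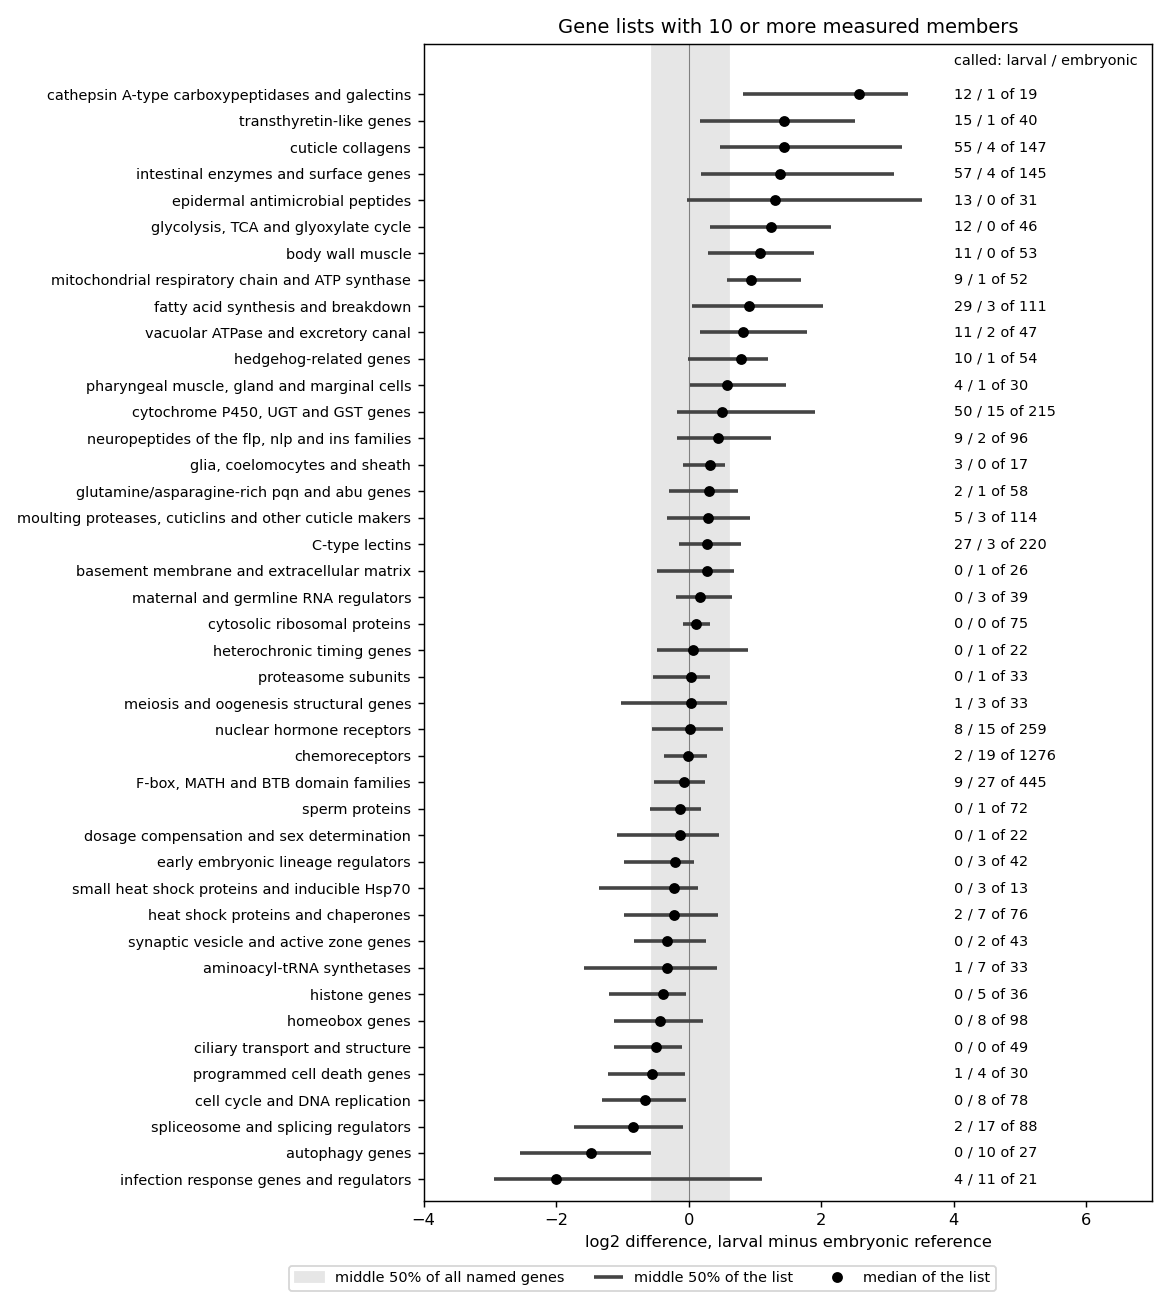
Median (point) and middle 50% (bar) of the log2 difference, larval minus embryonic reference, for each gene list with 10 or more measured members (y axis), beside the middle 50% of all named genes (grey band). Numbers give members called higher in the larval and in the embryonic reference, of those measured. Cathepsin A-type and galectin genes lie highest (2.56) and infection response genes lowest. Both of these lists were gathered after their values were seen, so their ranks cannot be set against those of lists fixed without that choice.

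Of 53 body wall muscle genes 11 were called, several of them genes of myosin and troponin filaments, and all 11 were higher in the larval reference (by an unadjusted p under 0.05 alone 38 were higher there and 5 in the embryonic reference), with a median of 1.07. The myosin heavy chain gene unc-54 read 9.91, 10.54, 10.55, 11.06 and 11.22 in the larval reference and 7.98, 8.61, 7.81 and 7.98 in the embryonic reference (2.56 ± 0.26). unc-22, the giant kinase of the thick filament, read 10.80, 10.67, 10.74, 10.17 and 10.66 in the larval reference and 7.61, 7.65, 6.77 and 7.32 in the embryonic reference (3.27 ± 0.19). The troponin T gene tnt-2 differed by 4.49 ± 0.21, the myosin light chain gene mlc-2 by 2.94 ± 0.42, the paramyosin gene unc-15 by 2.90 ± 0.16 and the myosin gene myo-3 by 2.57 ± 0.20. Other filament genes were not called, among them unc-89, of the giant M-line protein (1.85 ± 0.14), the tropomyosin gene lev-11 (1.36 ± 0.29) and the actin gene act-4 (-0.43 ± 0.10). Nor did the muscle-specifying factor hlh-1 (-0.45 ± 0.15, named after its value was seen) pass, which was near the floor in both groups. Of 30 pharyngeal genes 4 passed upward, the pharyngeal muscle genes myo-1 (3.06 ± 0.18), tni-4 (2.86 ± 0.32) and tnc-2 (2.66 ± 0.19) and the gland gene phat-4 (2.52 ± 0.12), and the gap junction gene inx-3 was higher in the embryonic reference (-2.15, or -1.98 and not called as deposited). Not called were the pharyngeal myosin gene myo-2 (1.40 ± 0.23) and glb-1, the brightest of these (0.98 ± 0.34). The pharynx-specifying factor pha-4 differed by 0.01 ± 0.13 and ceh-22 by 0.24 ± 0.11. Of 47 vacuolar ATPase and excretory canal genes 11 were higher in the larval reference, vha-6 most (3.81 ± 0.22), then exc-15 (3.16 ± 0.23) and the aquaporin gene aqp-8 (3.07 ± 0.22). vha-1 was the brightest not called (0.09 ± 0.12), and vha-18 (-3.52 ± 0.16) and nhx-5 (-2.29) were higher in the embryonic reference.

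Neuronal gene lists differed in their share of calls. Limma called none of 10 neuronal markers, though 3 were higher in the larval and 3 in the embryonic reference by an unadjusted p under 0.05 alone. Their mean level was 8.73 to 9.43 on the embryonic and 8.70 to 9.09 on the larval arrays. snb-1, which encodes synaptobrevin, differed by -1.43 ± 0.10, and unc-25, the GABA-synthesizing enzyme, by 1.41 ± 0.25. Of the vesicle and transport markers, snt-1, for synaptotagmin (1.2 ± 0.22), and unc-17, for the acetylcholine transporter (1.09 ± 0.14), had the higher mean in the larval reference. The kinesin gene unc-104 differed by -0.52 ± 0.28, unc-119 by -1.47 ± 0.18 and the SNAP-25 gene ric-4 by 0.21 ± 0.18. Of the markers that process neuropeptides, the convertase gene egl-3 differed by -0.41 ± 0.27, its partner sbt-1 by 0.13 ± 0.24 and the carboxypeptidase gene egl-21 by -1.503 ± 0.25. Of 43 synaptic genes the 2 called, snap-1 (-2.94 ± 0.22) and jip-1 (-2.46 ± 0.14), were higher in the embryonic reference (median -0.32, or -0.19 as deposited, where 1 was called on the larval side). Their share was 4.65%, the same as over all genes. The kinesin gene unc-116 was the brightest not called (-1.46 ± 0.17). Of 49 ciliary genes limma called none, although 41 of them had a higher mean in the embryonic reference, the median was -0.50 (-0.27 as deposited), and by an unadjusted p under 0.05 alone 30 were higher in the embryonic and 6 in the larval reference. The brightest of them was daf-19, a regulator of ciliary genes (-0.18 ± 0.17). Calls of neuropeptide genes leaned to the larval side, with 9 of 96 higher there and 2 higher in the embryonic reference (median 0.45). As shares these were 9.38% and 2.08%, beside 6.26% and 4.65% over all genes. The insulin-like genes ins-33 (4.25 ± 0.20) and ins-35 (3.14 ± 0.16) had the largest neuropeptide differences, followed by nlp-20 (2.79 ± 0.16) and nlp-50 (2.78 ± 0.34), and flp-1 was the brightest not called (-0.75 ± 0.20). Of 1276 chemoreceptor genes 2 were called higher in the larval and 19 in the embryonic reference, both shares below those over all genes, and 607 lay near the floor in both groups. As deposited 5 were called on the larval and 16 on the embryonic side. Those with the largest differences were srw-85 (-3.47 ± 0.20), srr-4 (-3.37 ± 0.18), srj-4 (-3.08 ± 0.13) and srw-18 (-2.89 ± 0.39), and srh-131 was the brightest not called (0.41 ± 0.18).

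Markers of the other tissues were read in the same way. Body wall muscle markers averaged 8.01 to 8.51 on the embryonic and 10.2 to 10.9 on the larval arrays, with 3 of 5 called, and pharyngeal markers 7.04 to 7.39 on the embryonic and 8.5 to 8.99 on the larval arrays, with 2 of 5 called. Both glial markers measured, ptr-10 (2.68 ± 0.21) and fig-1 (2.26 ± 0.19), were higher in the larval reference and near the floor in the embryonic one. Germ cell markers averaged 6.05 to 6.2 on the embryonic and 6.88 to 7.14 on the larval arrays, with 1 of 6 called. Limma called none of 5 sperm markers, which averaged 5.79 to 6.14 on the embryonic and 5.47 to 5.61 on the larval arrays. Of these msp-19 (-1.07 ± 0.15), gsp-3 (-0.94 ± 0.10) and spe-11 (-0.67 ± 0.18) were higher in the embryonic and spe-9 (0.46 ± 0.11) and msp-142 (0.27 ± 0.08) in the larval reference by an unadjusted p under 0.05 alone. Of the 3 markers of the adult intestine none was called, and they averaged 5.18 to 5.31 on the embryonic and 5.22 to 5.55 on the larval arrays. Both coelomocyte markers, unc-122 (0.55 ± 0.18) and cup-4 (0.51 ± 0.16), passed an unadjusted p under 0.05 alone. Early blastomere markers averaged 6.38 to 6.64 on the embryonic and 5.93 to 6.07 on the larval arrays, with pos-1 (-4.27 ± 0.14) the single one of 6 called. By an unadjusted p under 0.05 alone end-1 (0.59) and end-3 (0.68) were higher in the larval and pie-1 (-0.22) in the embryonic reference. Neither mex-5 (0.06) nor tbx-37 (0.01) passed it. The higher embryonic average thus rested on pos-1.

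On the embryonic side, a few heat shock genes stood far above the larval reference. Small heat shock proteins and the inducible Hsp70 hold unfolded proteins, and transcription of their genes rises under heat and other stresses. Of 13 such genes, gathered after their values were seen, 3 were called, hsp-16.2, hsp-16.41 and hsp-70, all higher in the embryonic reference. The median of the 13 was -0.22. hsp-70 read 9.71, 10.08, 9.71 and 10.22 in the embryonic reference and 4.20, 4.13, 4.26, 4.33 and 4.26 in the larval reference (-5.69 ± 0.12). Further probe sets that each match a pair of hsp-16 genes gave means of 12.55 and 4.11 (-8.44 ± 0.11) and of 12.04 and 5.67 (-6.37 ± 0.16). The 2 other family members with probe sets of their own, hsp-16.20 and hsp-16.21, were near the floor in both groups. hsp-12.2, a small heat shock gene with a mean level of 9.35 in the embryonic and 11.15 in the larval reference, stood the other way without passing (1.80 ± 0.20). Among all 76 heat shock and chaperone genes 7 were higher in the embryonic and 2 in the larval reference, and 6 and 6 as deposited. The co-chaperone gene stip-1 was called (-3.51 ± 0.28) and hsp-90, the constitutive Hsp90 gene, was not (-1.70 ± 0.13).

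Infection response genes separated into members high in opposite references. The 21 measured genes of this set were gathered after their values were seen, and 11 were higher in the embryonic and 4 in the larval reference. zip-2, a bZIP factor that drives irg-1 when a pathogen impairs translation, read 12.82, 12.88, 12.62 and 12.96 in the embryonic reference and 8.95, 9.60, 9.71, 9.94 and 10.22 in the larval reference (-3.14 ± 0.22). irg-1 read 9.48, 9.07, 9.44 and 9.08 in the embryonic reference and 5.35, 5.28, 5.25, 5.25 and 5.28 in the larval reference (-3.99 ± 0.10). The cullin gene cul-6 (-3.05 ± 0.14), eol-1 (-3.36 ± 0.12), the STAT gene sta-1 (-2.65) and the adaptor tir-1 (-2.86 ± 0.20) stood with them. The p38 kinase gene pmk-1 was at the threshold (-2.001 ± 0.42) and lost its call without any 1 of 5 of the arrays (-1.72 without larval replicate 4), with larval replicates 4 and 5 at 5.27 and 5.52 and the others between 6.58 and 7.31.

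irg-8 read 10.77, 10.78, 10.96, 10.63 and 10.56 in the larval reference and 5.10, 5.31, 5.98 and 6.32 in the embryonic reference (5.07 ± 0.23). irg-4 (4.87 ± 0.15), irg-5 (4.09 ± 0.18) and irg-7 (2.28) also were higher in the larval reference. In each of these 4 genes the order of the groups was thus opposite to that of irg-1 and irg-2. The factor atf-7, which acts under the p38 kinase, was the brightest not called (-0.66 ± 0.19).

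Autophagy, the turnover of cytoplasm in lysosomes, and cell death genes were also gathered after their values were seen. Of 27 autophagy genes 10 were higher in the embryonic reference and none in the larval one (1 by an unadjusted p under 0.05 alone), with a median of -1.48. atg-7, which encodes the activating enzyme of the pathway, read 10.61, 10.70, 10.38 and 11.02 in the embryonic reference and 7.28, 7.10, 6.72, 7.39 and 7.32 in the larval reference (-3.52 ± 0.16). bec-1, the Beclin gene, differed by -3.34 ± 0.17, allo-1, whose product marks paternal organelles for removal, by -3.49 ± 0.15, and sqst-1, the p62 cargo receptor gene, by -3.21 ± 0.15. lgg-1, an Atg8 homologue that coats the autophagosome, read 12.60, 12.55, 12.22 and 12.65 in the embryonic reference and 9.79, 10.33, 10.58, 10.29 and 10.61 in the larval reference (-2.18 ± 0.17). Without joint normalization the lgg-1 difference was -1.57 and not called. The other Atg8 gene, lgg-2, had -1.70 ± 0.28 and was not called.

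egl-1, the BH3-only gene whose transcription starts programmed cell death, read 10.16, 10.35, 10.48 and 9.93 in the embryonic reference and 5.62, 5.42, 5.61, 5.14 and 5.36 in the larval reference (-4.80 ± 0.14). The caspase gene ced-3 was near the floor in both groups (-0.17 ± 0.09), and ced-4 (-1.81 ± 0.14) and the Bcl-2 gene ced-9 (-1.29 ± 0.18) were not called. The nuclease genes crn-2 (-4.72 ± 0.14) and crn-4 (-3.90 ± 0.09) and the bZIP gene ces-2 (-2.54 ± 0.13) were higher in the embryonic reference, and the engulfment adaptor ced-6 was higher in the larval reference (2.37). These were 4 and 1 of 30 cell death genes, and ced-7, an engulfment gene, was the brightest not called (-0.59 ± 0.21).

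**Figure D4:**
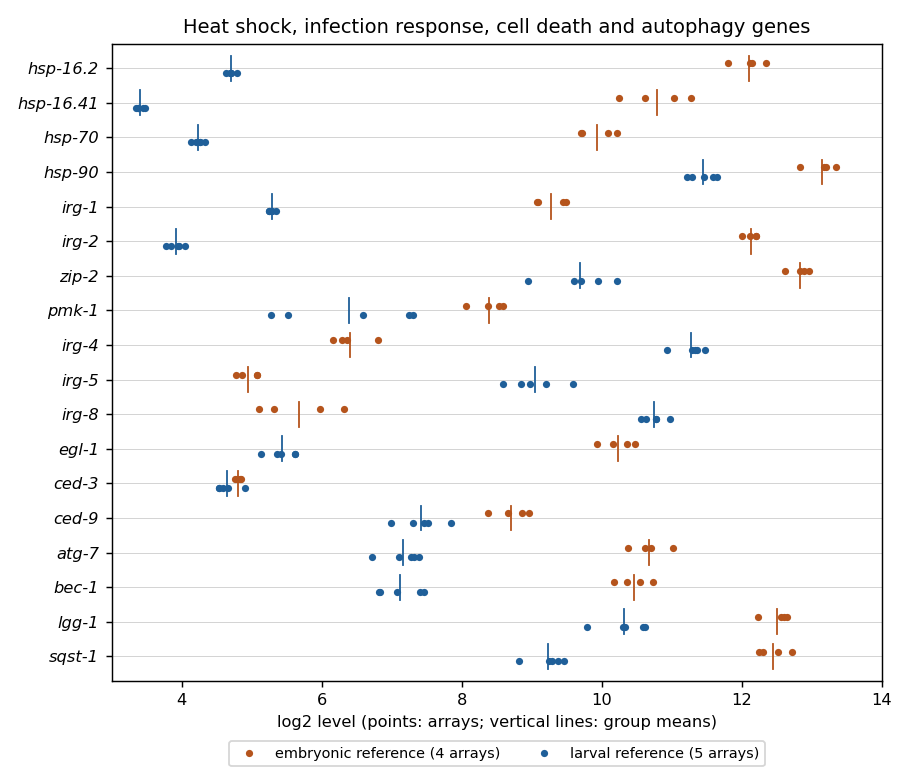
Log2 level (x axis) of 18 heat shock, infection response, cell death and autophagy genes, 1 row a gene, with points for the 4 embryonic (orange) and 5 larval arrays (blue) and vertical lines at group means. irg-4, irg-5 and irg-8 are higher in the larval reference, ced-3 overlaps between the groups, and the others have the higher mean in the embryonic reference.

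F-box genes, which encode substrate adaptors of ubiquitin ligases, supplied several large embryonic differences. Of 445 F-box, MATH and BTB genes 27 were higher in the embryonic and 9 in the larval reference, and 243 lay near the floor in both groups. The called shares were 6.07% and 2.02%, beside 4.65% and 6.26% over all genes. fbxc-58 read 10.95, 10.89, 10.94 and 10.95 in the embryonic reference and 4.46, 4.70, 4.80, 4.25 and 4.46 in the larval reference (-6.40 ± 0.11), and fbxa-3 (-5.89 ± 0.07), fbxa-79 (-5.05 ± 0.13) and fbxa-153 (-4.61 ± 0.09) followed. fbxc-54 was the brightest not called (-1.57 ± 0.12). Runs of neighbouring genes were called here as well, in chromosome I around ari-1.1 (-5.12 ± 0.21), ari-1.2 (-2.86 ± 0.16) and ari-1.3 (-3.99 ± 0.15), which encode Ariadne-type ubiquitin ligases, and in chromosome II from lido-8 to lido-12 (lido-9, -3.64 ± 0.10). The nuclear receptor family had 15 members higher in the embryonic and 8 in the larval reference, of 259. These were shares of 5.79% and 3.09%, beside 4.65% and 6.26% over all genes. Its largest differences were those of nhr-84 (-4.38 ± 0.13), nhr-232 (-4.29 ± 0.11), nhr-102 (-3.85 ± 0.09) and nhr-154 (-3.23 ± 0.10). nhr-49, a regulator of fat metabolism, was not called (-1.53 ± 0.14).

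Genes of dividing and patterning cells that passed the test were all higher in the embryonic reference. Of 78 cell cycle and replication genes 8 were higher in the embryonic reference and none in the larval reference (8 by an unadjusted p under 0.05 alone), with a median of -0.66. mcm-7, a subunit of the replicative helicase, read 9.41, 10.40, 10.51 and 10.82 in the embryonic reference and 7.62, 6.72, 6.60, 6.61 and 6.62 in the larval reference (-3.45 ± 0.30), and larval replicate 1 was about 1 log2 unit above the other larval arrays. The centromere gene knl-2 (-2.88 ± 0.11), the kinesin gene klp-7 (-2.78 ± 0.16) and the mitotic kinase gene cdk-1 (-2.30) also were called. So was cki-1, whose product instead holds the cycle in G1 (-2.44 ± 0.28). lin-5, which acts at the spindle, was the brightest not called (0.94 ± 0.13). Of 36 histone genes 5 were called, all higher in the embryonic reference, 3 as deposited, and 6 were higher in the larval reference by an unadjusted p under 0.05 alone. They were the linker histones hil-7 (-3.56 ± 0.14), hil-2 (-2.72 ± 0.13), hil-3 (-2.53 ± 0.17) and hil-5 (-2.14, or -1.91 and not called without embryonic replicate 3) and the variant histone H3.3 gene his-72 (-2.49 ± 0.10), whose calls in families of like sequence are uncertain. The linker histone gene his-24 was the brightest not called (-1.65 ± 0.15).

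Of 98 homeobox genes 8 were higher in the embryonic reference (5 as deposited) and none in the larval one (23 by an unadjusted p under 0.05 alone), among them ceh-43 (-2.59 ± 0.18), ceh-48 (-2.67 ± 0.17), duxl-1 (-2.96 ± 0.21) and lin-11 (-2.58 ± 0.24). ceh-20, a Pbx homologue, was the brightest not called (-0.84 ± 0.17). Among 42 early lineage regulators the 3 called were hlh-2, the partner of proneural factors (-3.04 ± 0.18), cnd-1, a NeuroD homologue (-2.22 ± 0.17), and mls-2 (-2.09 ± 0.16, or -1.98 and not called without larval replicate 4). The endoderm factors end-1 (0.59 ± 0.11) and end-3 (0.68 ± 0.13) stood slightly the other way, and tbx-37 was near the floor in both groups (0.01 ± 0.07). Of 22 timing genes, which set the order of larval stages, hbl-1 alone was called. It read 11.50, 11.82, 10.90 and 12.04 in the embryonic reference and 8.30, 9.02, 9.29, 8.55 and 9.36 in the larval reference (-2.66 ± 0.28), whereas apl-1 (-0.54 ± 0.12), lin-28 (-0.23 ± 0.20) and lin-29 (0.73 ± 0.20) were not.

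Calls among maternal and germline genes were small in number, and the shares over all genes were 6.26% larval and 4.65% embryonic. Of 39 maternal and germline RNA regulators 3 (7.69%) were higher in the embryonic reference. pos-1, a zinc finger RNA-binding protein of early blastomeres, read 9.58, 9.12, 9.13 and 8.90 in the embryonic reference and 5.02, 5.06, 4.94, 4.64 and 4.92 in the larval reference (-4.27 ± 0.14), and mex-3, a KH-domain RNA-binding protein, differed by -4.001 ± 0.28. The third was glh-4 (-2.12 ± 0.16, or -1.92 and not called without embryonic replicate 4). Their partners in the early embryo mex-5 (0.06 ± 0.11) and pie-1 (-0.22 ± 0.08) were not called, nor was ife-1, an eIF4E gene and the brightest of these (0.05 ± 0.12). Of 33 meiosis genes 3 (9.09%) were higher in the embryonic reference, zim-2 (-3.69 ± 0.31) and zim-3 (-2.46 ± 0.23), for proteins of chromosome pairing centres, and him-17 (-2.23 ± 0.29, or -1.99 and not called without embryonic replicate 4). By an unadjusted p under 0.05 alone 13 were higher there and 12 in the larval reference. The cohesin gene him-1 was the brightest not called (-0.70 ± 0.16). Of the germ cell markers him-3, also of the meiosis list and a protein of meiotic chromosome axes, was the single meiosis gene called higher in the larval reference (2.45 ± 0.22, 6.61 to 7.80 against 4.40 to 4.60). The markers glh-1 (0.76 ± 0.19), pgl-1 (0.80 ± 0.09), gld-1 (0.73 ± 0.20), nos-2 (0.28 ± 0.11) and mes-3 (0.03 ± 0.12) were not called. Adult reproductive genes were not called on the larval side. Limma called 0 of 5 vitellogenin genes, whose products are yolk proteins of adults, and by an unadjusted p under 0.05 alone vit-1 (0.17 ± 0.07) and vit-6 (0.46 ± 0.12) were higher in the larval reference. Those of vit-2 (0.11 ± 0.10) and vit-5 (-0.20 ± 0.13), markers of the adult intestine, did not pass it. Of 72 sperm genes 1, spe-5, was called, on the embryonic side (-2.04 ± 0.15, not called without embryonic replicate 2, -1.99, or 4, -1.92, or as deposited, -1.88), with larval sperm calls 0 by limma and 14 by an unadjusted p under 0.05 alone. sss-2 was the brightest not called (-0.06 ± 0.12).

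RNA processing and translation genes differed by class. Splicing and tRNA synthetase genes were gathered after their values were seen. Of 88 spliceosome and splicing genes 17 were higher in the embryonic and 2 in the larval reference (11 and 3 as deposited), with a median of -0.84. uaf-2, the small subunit of U2AF, read 8.28, 8.06, 8.63 and 8.79 in the embryonic reference and 5.36, 5.66, 5.83, 6.01 and 5.80 in the larval reference (-2.71 ± 0.17), and rbm-39 differed by -3.13 ± 0.28, rbm-17 by -2.59 ± 0.09 and teg-1 by -2.87 ± 0.19. The helicase gene ddx-17 was the brightest not called (-0.82 ± 0.12). Of 33 aminoacyl-tRNA synthetase genes 7 were higher in the embryonic reference, yars-1 most (-3.57 ± 0.17), then dars-1 (-2.79 ± 0.11), gars-1 (-2.72 ± 0.22) and hars-1 (-2.35 ± 0.17), and nars-1 was the brightest not called (-0.46 ± 0.10), while the mitochondrial enzyme gene iars-2 was higher in the larval reference (2.06, not called without embryonic replicate 1, 1.96, or larval replicate 1, 1.97). As deposited, 4 were called on the embryonic side and the median changed sign, from -0.32 to 0.04. By comparison limma called none of 75 cytosolic ribosomal protein genes. Their median depended on the normalization and was 0.11 here, 0.86 as deposited and 0.52 with median centring. Here their differences lay between -0.74 and 1.39, and by an unadjusted p under 0.05 alone 24 were higher in the larval and 13 in the embryonic reference, rpl-17, the brightest, standing at -0.45 ± 0.06. The probe set of rrn-3.56, annotated as a ribosomal RNA gene and named after its values were seen, read 12.72, 13.30, 12.78 and 13.10 in the embryonic reference and 8.84, 9.18, 9.42, 8.77 and 6.61 in the larval reference (-4.41 ± 0.49), with larval replicate 5 lowest.

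In 5 further lists the number of members called was small. Of 58 genes of prion-like, glutamine- and asparagine-rich proteins, pqn-94 (3.15 ± 0.45) and pqn-22 (2.49 ± 0.19) were higher in the larval and pqn-89 (-2.49 ± 0.17) in the embryonic reference, and pqn-53 was the brightest not called (-0.72 ± 0.13). rpn-13, of the regulatory particle, was the single one called of 33 proteasome genes (-2.08 ± 0.12, or -1.92 and not called as deposited), beside pas-6, the brightest (-0.91 ± 0.11). Of 22 dosage compensation and sex determination genes dpy-27, a condensin of the hermaphrodite X chromosomes, was called (-2.47 ± 0.40), and dpy-30 was the brightest not called (0.38 ± 0.23). Of 26 extracellular matrix genes the laminin gene lam-3 was at the threshold (-2.03 ± 0.24, not called as deposited, -1.80, or without embryonic replicate 2, -1.99, or 4, -1.75, or larval replicate 1, -1.999), and ost-1, for the matrix protein SPARC, was the brightest not called (0.11 ± 0.12). Of 17 glial and coelomocyte genes vap-1 was called with both glial markers, higher in the larval reference (3.66 ± 0.18). These were 17.6% of that list, beside 6.26% over all genes.

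The neuronal arrays of the same 2 stages were embryonic pan-neural (3 arrays) and larval pan-neural (3 arrays). They were compared in the same way, to see which differences recur in samples enriched for neurons. The embryonic neurons were sorted from culture by a fluorescent pan-neural marker, and larval neuronal RNA was bound to a tagged poly(A)-binding protein driven by the F25B3.3 promoter. The paper names RNA that sticks to the beads without the tag as a limit of this pull-down. Larval neurons below therefore means a sample enriched for neuronal RNA. In these arrays 973 probe sets (4.32%) were higher in the larval and 788 (3.49%) in the embryonic neurons. Of 145 intestinal genes 54 were called on the larval and 4 on the embryonic side. The counts were 50 and 1 of 147 cuticle collagen genes and 17 and 0 of 53 body wall muscle genes. Over all 17118 genes they were 806 and 532. Whether these larval calls came from neurons or from RNA bound without the tag was not tested. Of the probe sets higher in the larval reference 59.4% were also called in the neurons, which was 79.4% of those called there, and of those higher in the embryonic reference 48.9%, or 73.4% of the neuronal calls. The references and the neuronal samples share the culture or the pull-down and the separate normalization of the stages, so their likeness is not independent support. The scanner type of the neuronal arrays was not looked up. irg-2 (-8.005 ± 0.25 in the neurons), hsp-16.2 (-6.59 ± 0.35) and egl-1 (-4.31 ± 0.25) were again higher on the embryonic side. cpr-5 (4.90 ± 0.20) and ilys-5 (5.25) were again higher on the larval side.

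Other genes had a smaller difference in the neurons. For dpy-14 it was -2.43 ± 0.62 and not called, for C25F9.2 -2.70 ± 0.47, for F59C12.4 -2.12 ± 0.28 and for mcm-7 0.23 ± 0.29. For neuropeptide genes the count was instead larger, with 28 of 96 higher in the larval neurons (median 1.23) and 9 of 96 in the larval reference. These contrasts between the references and the neurons were not tested. A single probe set, that of T28B11.1, was called in opposite directions. It read 12.13, 12.25, 11.65 and 12.26 in the embryonic reference and 9.12, 9.15, 10.002, 8.58 and 9.50 in the larval reference (-2.80 ± 0.26). In the neurons it read 6.43, 5.81 and 6.06 in the embryo and 9.30, 9.35 and 9.23 in the larva (3.19 ± 0.17). The embryonic arrays thus lay above the larval ones in the references and below them in the neurons, without overlap in either.

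**Figure D5:**
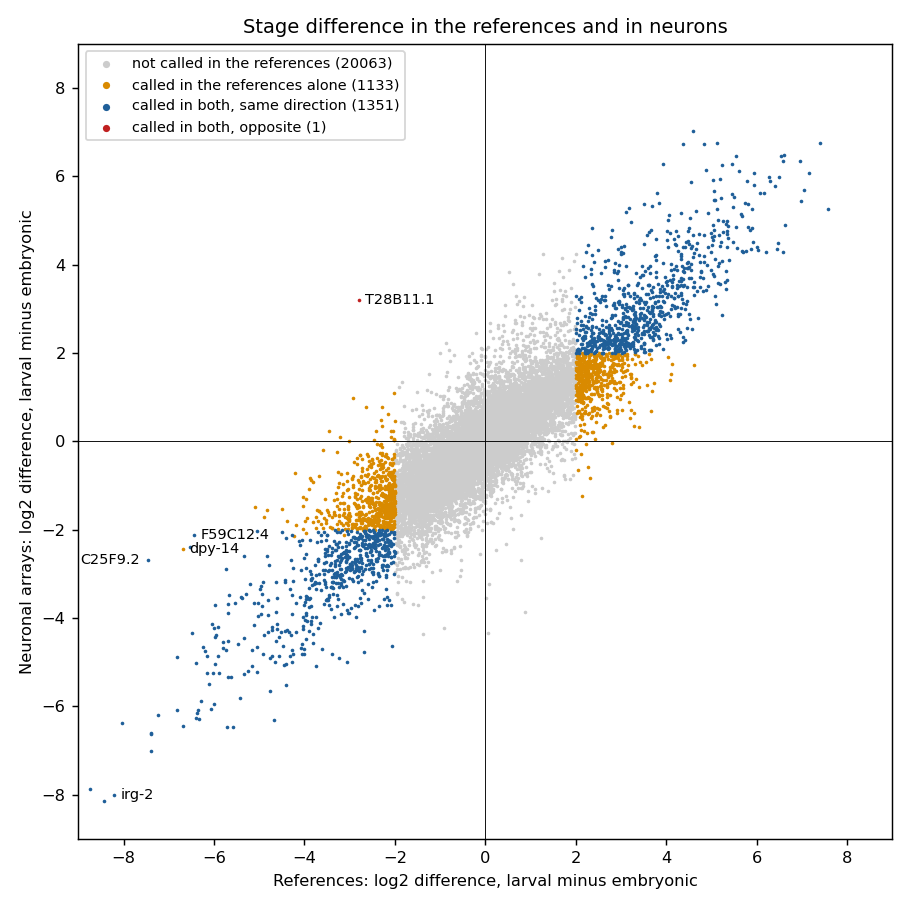
Log2 difference of each probe set between the stages in the references (x axis, larval minus embryonic, 5 and 4 arrays) and in the neuronal arrays (y axis, 3 and 3 arrays). Of the probe sets called in the references, 773 larval-side and 578 embryonic-side sets were called the same way in the neurons (blue), others were not called there (orange), and T28B11.1 was called in opposite directions (red).

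Genome position and probe design were compared as descriptions. On chromosome X 8.84% of 2352 genes were higher in the larval and 3.53% in the embryonic reference, and on chromosome I 4.13% and 6.12% of 2469 genes. The other chromosomes lay between 5.61% and 6.94% on the larval and between 4.08% and 6.04% on the embryonic side. Limma called none of the 8 mitochondrial genes, and 7 of them had an unadjusted p under 0.05. Of probe sets specific to a transcript (_at) 4.84% were higher in the larval and 4.00% in the embryonic reference. The shares were 7.53% and 7.57% of the _s_at kind, and 9.94% and 10.9% of those prone to cross-hybridization (_x_at). Of the 895 probe sets with no gene name 1.12% were called on the larval and 7.26% on the embryonic side. Of these 65 embryonic calls 43 were of the _x_at kind, which made up 159 of the 895.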

How the data were processed

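Gene expression was measured on Affymetrix C. elegans GeneChips, 1 array a sample. The deposited intensities were made by the authors with robust multi-array analysis (RMA), separately for 3 sets of arrays, and are on a linear scale. The RMA version was not given in the sources used here. The labels place larval replicates 1 to 3 with the embryonic arrays and 4 and 5 in the second set, whereas the median intensities of all 5 lie together, apart from the embryonic ones. The paper lists RMA values of the larval reference with the larval neuronal samples, and those of the embryonic reference apart, with the embryonic neurons. The second deposited version of these 5 arrays, normalized with the A-class arrays, entered an alternative only.

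Values were taken to log2, the 77 AFFX controls were dropped, and the 9 arrays were then quantile-normalized jointly. Groups were compared with limma 3.58.1 (lmFit and eBayes, R 4.3.3) and Benjamini-Hochberg adjustment over 22548 probe sets, in place of the SAM software used in the study. A call needed an adjusted p under 0.01 and a 4-fold difference. No filter on intensity was applied. The script was tested on simulated data. Array experiment records supplied hybridization day, array protocol, scanner and chip lot. All 9 arrays were of 1 chip lot, and days, array protocols and scanners were nested in the groups.

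The platform annotation gave 1 gene for 20766 probe sets, several for 887 and none for 895, and 20701 of the first kind were found in the RefSeq table of WBcel235, used for current symbols, chromosomes and neighbours. No gene was named from a probe set with several. Lists used the brightest probe set of a gene. Of 2981 genes with several probe sets 653 had a call in some of them and 150 in all. The members and gene lists were chosen with earlier results of these data known, and 8 lists (small heat shock, infection response, autophagy, cell death, tRNA synthetases, splicing, transthyretin-like, and carboxypeptidase and galectin genes) and the list counts under other settings were chosen after seeing the data.

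By rule the text names the 12 genes with the largest difference in each direction, up to 4 called members and the brightest member not called of each list described, and the measured cell type markers. A further 51 of the 289 genes named in the text were chosen after their values were seen. Mean levels are limited by 4 and 5 arrays.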

Additional observations from a re-analysis of the deposited data

Results flagged for a closer look

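In 46 of 580 groups of 4 or 5 arrays, over the 289 genes named and the glyceraldehyde phosphate dehydrogenase control, 1 array stood apart from the others by Dixon's criterion, which chance meets in about 1 of 20 groups. The embryonic arrays 1, 2, 3 and 4 stood apart 11, 3, 8 and 2 times and the larval arrays 1, 3, 4 and 5 stood apart 9, 3, 9 and 1 times. On embryonic replicate 1 the levels apart were those of F26E4.5 (8.75 against 10.85 to 10.999), zim-2 (6.44 against 8.05 to 8.10), vha-18 (9.28 against 8.46 to 8.56), cutl-25 (7.32 against 8.05 to 8.17), rbm-39 (7.67 against 9.01 to 9.08), col-74 (7.85 against 5.40 to 5.61), fbxc-54 (9.54 against 9.14 to 9.19), tni-4 (6.71 against 5.44 to 5.65), grl-15 (7.50 against 6.18 to 6.38), exc-15 (7.22 against 6.31 to 6.40) and vha-6 (7.26 against 6.29 to 6.40). Embryonic replicate 2 stood apart in fbxc-58 (10.89 against 10.94 to 10.95), srj-4 (8.44 against 8.03 to 8.09) and cpr-4 (5.46 against 5.86 to 5.89). In embryonic replicate 3 the array read differently in ceh-48 (6.85 against 7.50 to 7.61), ced-7 (8.63 against 9.55 to 9.66), lec-6 (11.15 against 10.32 to 10.45), unc-89 (8.21 against 8.57 to 8.64), nas-11 (5.15 against 5.22 to 5.23), ins-33 (5.97 against 5.81 to 5.83), cnc-8 (5.71 against 5.34 to 5.35) and ugt-46 (3.89 against 4.31 to 4.35). For embryonic replicate 4 the values apart belonged to pha-4 (7.25 against 6.69 to 6.72) and clec-265 (5.61 against 4.97 to 5.02). On larval replicate 1 the levels apart were those of allo-1 (6.98 against 7.56 to 7.70), mcm-7 (7.62 against 6.60 to 6.72), snap-1 (7.38 against 8.30 to 8.49), teg-1 (4.37 against 4.19 to 4.22), ifb-2 (8.99 against 9.62 to 9.79), him-3 (7.80 against 6.61 to 6.85), grd-5 (9.42 against 8.32 to 8.53), grd-10 (9.59 against 10.67 to 10.96) and hrg-7 (12.35 against 12.54 to 12.60). Larval replicate 3 stood apart in jip-1 (7.24 against 6.72 to 6.83), hil-5 (8.88 against 9.205 to 9.26) and dpy-30 (10.22 against 10.67 to 10.77). In larval replicate 4 the array read differently in C04C3.4 (5.41 against 5.62 to 5.68), vha-18 (5.33 against 5.13 to 5.19), srj-4 (4.71 against 5.14 to 5.21), mes-3 (7.39 against 7.69 to 7.76), col-19 (4.57 against 4.10 to 4.22), unc-15 (11.18 against 11.45 to 11.54), unc-22 (10.17 against 10.66 to 10.80), vap-1 (8.68 against 7.90 to 8.09) and ctsa-4.1 (9.82 against 9.23 to 9.35). For larval replicate 5 the values apart belonged to rrn-3.56 (6.61 against 8.77 to 9.42).

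T28B11.1, known here by its sequence name, was higher in the embryonic reference (larval minus embryonic -2.80) and lower in embryonic than in larval neurons (3.19). Every array of a stage lay on the same side in each comparison, and the difference between the comparisons was not tested. Its main values, by array, stand beside the neuronal comparison.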

How the results depend on the processing

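The 1302 probe sets called higher in the larval and the 1183 called higher in the embryonic reference were recounted under 22 alternatives, and none of these calls was made in the opposite direction in any of them. Leaving out all probe sets of the _x_at and _s_at kinds gave 767 and 634 calls, in part since fewer were tested. A threshold of 1.5-fold gave 5199 and 5524, and a threshold of 8-fold gave 569 and 421. With each array left out in turn the counts were 1267 to 1352 and 1124 to 1250. Joint normalization mattered for the balance of directions. Without it the calls were 1578 and 940 (62.7% larval, against 52.4%), and median centring gave 1167 and 1369 (46.02% larval, median of all probe sets -0.14). The remaining alternatives gave 1277 to 1337 calls on the larval and 1150 to 1237 on the embryonic side.

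Replicate numbers did not pair the arrays, since deviations of same-numbered arrays correlated at -0.09 to 0.02. The fit with a replicate block over replicates 1 to 4 gave 1329 and 1197 calls. Hybridization day as a random block gave 1307 and 1192. Of the 196 genes named in the text that were called, 128 kept their call in every alternative that tested them, 67 lost it at 8-fold and 10 without 1 array. The 13 lost without joint normalization were his-72, grl-1, lgg-1, inx-3, hil-5, glh-4, sdha-2, mls-2, rpn-13, spe-5, lam-3, col-74 and pmk-1, and hsp-12.2, clec-180, unc-89, elt-3 and act-5 were gained there. The 9 lost with larval replicates 4 and 5 alone included grl-15, him-17 and inx-3.

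Among 43 lists, the count of calls in at least 1 direction moved by over 1.5 times in 17 without joint normalization, in 4 with median centring, in 1 with larval replicates 1 to 3 alone and in 10 with larval replicates 4 and 5 alone. Without joint normalization these were histone, homeobox, respiratory chain, glycolysis, heat shock, splicing, tRNA synthetase, chemoreceptor, fatty acid, synaptic, hedgehog-related, pharyngeal, sperm and proteasome genes, as given beside them, and early lineage (0 to 1 larval call), extracellular matrix (0 to 1) and small heat shock genes (0 to 1). With larval replicates 4 and 5 alone moulting genes higher in the embryonic reference went from 3 to 5. Medians moved by over 1.5 times or changed sign in 22 of the 43 lists without joint normalization and in 17 with median centring, and changed sign in 5 and 5 of them. That of F-box, MATH and BTB genes went from -0.08 to 0.03 without joint normalization. Stage, preparation, array protocol, scanner and hybridization day cannot be told apart in this design, nor can RMA set as the paper lists it, though the labels divide the sets otherwise. Values near the floor set a bound on what fold can be read.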
